A study of Mus musculus with 10 samples.

Results

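The 33 genes described here encode proteins that copy DNA in S phase, from the loading of the helicase at replication origins to the assembly of chromatin on the new strands. They were taken from a list of symbols: of the 45101 probe sets on the array, where 18193 genes are named by probe sets with a single symbol, 71 were annotated to exactly 1 of these symbols, and each gene was read from its probe set with the highest mean log2 signal over all arrays. The RNA came from embryonic mouse limb buds, with 5 arrays labelled Dicer mutant and 5 labelled wild type, each group numbered 1 to 5. The embryos came from mice with 1 floxed Dicer allele and the prxcre driver, mated to mice with both Dicer alleles floxed. Every embryo of that cross inherits a floxed allele. The design text names heterozygous, wild type and mutant limb buds, while the arrays are labelled only wild type or mutant. Whether the wild type arrays held heterozygous embryos is not given. The sources used here do not give which embryos were counted as wild type, the stage, the limb (fore or hind) or the number of embryos behind an array. Nothing says that the arrays of a group came from separate animals, and a p-value here measures only how far these arrays spread, which may be technical. The prxcre driver is active in limb bud mesenchyme and not in ectoderm, blood, endothelium or muscle precursors, so those other cells of a mutant limb bud are not targeted.

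Each origin of replication is licensed in G1, when the origin recognition complex with Cdc6 and Cdt1 loads the ring of MCM helicase subunits, and it is fired in S phase, when Cdc45 and the GINS complex turn that ring into an active helicase. Polymerases, primase, the sliding clamp and its loader, and the enzymes that join lagging strand fragments then follow the fork. Many of the genes are transcribed at the entry into S phase under E2F transcription factors, and growing limb bud mesenchyme is rich in cycling cells. Dicer is the ribonuclease that cuts microRNA hairpins into mature microRNAs, and 1 of the replication genes, Mcm7, hosts 3 such hairpins. In bulk RNA of a limb bud, fewer cells in S phase and less RNA per cell cannot be told apart.

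A search of the RefSeq microRNA table (GRCm38.p6) for hairpins lying inside the 33 genes found 4, namely Mir106b, Mir93 and Mir25 in Mcm7 and Mir7053 in Pold1. The mature microRNAs of the Mcm7 cluster are shown because they are products of Dicer made from the transcript of a replication gene. They lie on the minus strand, as Mcm7 does, miR-106b-5p at chr5:138165787-138165807, miR-93-5p at chr5:138165574-138165596 and miR-25-3p at chr5:138165332-138165353. Capitals mark the seed, bases 2 to 8, which pairs with target messenger RNAs. The first 2 share 1 seed and the third has another.
miR-106b-5p: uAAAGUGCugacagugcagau
miR-93-5p: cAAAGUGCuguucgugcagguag
miR-25-3p: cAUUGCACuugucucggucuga
The arrays measured messenger RNA and gave a signal for the host gene Mcm7 only, not for the mature microRNAs.

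The RefSeq promoter table (GRCm38.p6) held 31 windows, from 250 bases before to 50 after a start site, for 27 of the 33 genes. Prim2, Mcm4, Gins1, Gins2, Pole and Gmnn had no window there. Both strands were searched for the E2F words TTTCCCGC, TTTGGCGC, TTTCGCGC and TTTGCCGC and for CCAAT, the word bound by the factor NF-Y. An E2F word stood in 11 of the 31 windows (35.5%), in 11 genes: Orc1, Cdc6, Cdt1, Mcm3, Mcm5, Mcm6, Mcm7, Pola1, Pold1, Rfc3 and Lig1. Of the 32851 windows searched, which did not cover every chromosome, 2.26% held one. CCAAT stood in 54.8% of the windows of the 33 genes and in 37.4% of all windows searched. In the same search 27.7% of the windows of other replication genes and 6.90% of those of mitosis genes held an E2F word, and 86.2% of the mitosis windows held CCAAT. These shares describe letters in windows whose base composition was not matched, and they say nothing of binding. None of the words contains another, but E2F words on opposite strands overlap in Mcm5 and Mcm6.

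The 250 bases before the start are printed for the 4 genes with the smallest p-values in the 8-array comparison below that have a searched word there. All lie on the minus strand, Mcm3 at chr1:20820313-20820562, Mcm7 (the second of its 2 windows) at chr5:138171884-138172133, Pcna at chr2:132253181-132253430 and Rfc3 at chr5:151651209-151651458. The letters read 5′ to 3′ towards the gene, and capitals mark E2F words and CCAAT or their complements.
Mcm3: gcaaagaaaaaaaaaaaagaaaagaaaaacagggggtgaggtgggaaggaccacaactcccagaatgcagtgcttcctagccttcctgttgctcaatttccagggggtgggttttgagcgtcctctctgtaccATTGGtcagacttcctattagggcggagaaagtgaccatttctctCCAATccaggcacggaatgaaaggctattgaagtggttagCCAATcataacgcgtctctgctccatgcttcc
Mcm7: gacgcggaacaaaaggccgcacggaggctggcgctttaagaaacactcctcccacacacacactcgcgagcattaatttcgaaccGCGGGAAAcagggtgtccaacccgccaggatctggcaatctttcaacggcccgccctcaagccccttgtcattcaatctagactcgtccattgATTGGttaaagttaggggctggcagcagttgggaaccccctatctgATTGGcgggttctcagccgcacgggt
Pcna: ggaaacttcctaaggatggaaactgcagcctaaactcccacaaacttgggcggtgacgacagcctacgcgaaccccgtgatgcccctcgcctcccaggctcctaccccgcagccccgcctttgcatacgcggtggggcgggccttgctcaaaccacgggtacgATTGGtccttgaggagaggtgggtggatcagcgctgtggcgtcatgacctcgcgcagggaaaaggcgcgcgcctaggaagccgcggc
Rfc3: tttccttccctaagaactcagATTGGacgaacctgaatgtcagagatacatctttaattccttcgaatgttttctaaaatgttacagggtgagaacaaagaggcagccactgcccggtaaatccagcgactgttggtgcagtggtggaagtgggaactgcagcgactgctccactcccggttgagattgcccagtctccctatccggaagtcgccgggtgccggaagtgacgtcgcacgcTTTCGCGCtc
Mcm7 has an E2F word 165 bases before the start and CCAAT words at 72 and 26 bases, and Rfc3 has an E2F word 10 bases before its start. Mcm3 carries 3 CCAAT words in the printed stretch, while both of its E2F words lie after the start. In Pcna the search found CCAAT alone.

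The deleted gene was read first, as a check of the labels. A Dicer1 probe set gave signals of 226, 359.7, 221, 215 and 205 in Dicer mutant limb buds 1 to 5, against 425, 233, 372, 390.4 and 706 in wild type limb buds 1 to 5. A second Dicer1 probe set gave 555, 774, 523, 534 and 506 in mutant limb buds 1 to 5, against 771, 551, 753, 707 and 939.99 in wild type limb buds 1 to 5. In both, the arrays labelled mutant 2 and wild type 2 each lay with the other group. All arrays are called by their labels below. The sources used here do not say whether the probes cover the deleted exon. Results are therefore given for the 10 arrays as labelled and for the 8 arrays left without both numbered 2, a choice made with the Dicer1 signals known. No 2 arrays held identical values, the array medians lay between 145.9 and 152.8, and all 33 genes were among the 22519 probe sets tested. Of 16 limb mesenchyme markers on the array 15 passed the filter on dim signals, their summed signal was 16312 to 19669.8 in mutant and 15891 to 19858 in wild type limb buds, and limma called 0 of them in either comparison. With the array number as a block in the 8 arrays, 1 of these markers was called, the hindlimb gene Tbx4 (log2 difference 0.58, limma adjusted p = 0.00705, and 0.157 without the block). The block called 1219 of all 22519 tested probe sets. Of the 15 markers tested, 8 lay above 0 in the 8 arrays, while Tbx5 lay at -0.21 (limma adjusted p = 0.649 without the block).

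No replication gene passed the test in either comparison in the main fit, which used neither pairing nor array weights. In the 10 arrays as labelled, 0 of the 33 genes were called by limma at a Benjamini-Hochberg adjusted p under 0.05, where 0% of all tested probe sets were called. None of the 33 had an unadjusted p under 0.05 either, a level that 2.81% of all tested probe sets reached (0.702% with the mutants higher). The log2 differences, Dicer mutant minus wild type, had a median of 0.0073 (all tested probe sets -0.021) and ran from -0.11 (Gins2) to 0.21 (Rfc3). They lay above 0 for 20 of the 33 genes, against 40.3% of all tested probe sets. In 0 genes was the mutant signal above the wild type signal of the same number in all 5 pairs, against 1.38% of all tested probe sets, and in 0 below it in all 5, against 4.46%. The 95% confidence intervals of 31 of the 33 lay within 0.5 of 0 on the log2 scale. In an exact two-sided permutation test of 5 against 5 arrays, which cannot give a p below 0.00794, the smallest p of a gene was 0.214.

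Without both arrays numbered 2, limma again called 0 of the 33 genes, where 1.68% of all tested probe sets were called, 0.928% higher and 0.75% lower in mutants. The median log2 difference was 0.049 (all tested probe sets -0.0064), 21 genes lay above 0 and 12 below, and the values ran from -0.19 (Gins2) to 0.36 (Rfc3). Of all tested probe sets 47.7% lay above 0. At an unadjusted p under 0.05 stood Mcm3, Fen1 and Mcm7, all higher in mutants, which is 3 of 33 against 5.24% of all tested probe sets in that direction and 12.7% in either. In 4 genes, Mcm3, Fen1, Rfc3 and Mcm10, the 4 mutant arrays all lay above the 4 wild type arrays, against 4.12% of all tested probe sets. In none of the 33 did they all lie below, against 4.97%. The mutant signal was above the wild type signal of the same number in all 4 pairs for 9 genes (Cdt1, Mcm3, Mcm7, Mcm10, Pole, Pcna, Rfc3, Fen1 and Ung), against 13.4% of all tested probe sets, and below it in all 4 for Gins2 alone, against 16.8%. The widest interval limits were 1.44-fold lower (Tk1) and 1.68-fold higher (Rfc3), and 28 of the 33 intervals lay within 0.5 of 0. In the pair numbered 2 the difference was opposite in sign to that of the 8 arrays for 27 of the 33 genes, against 67.8% of all tested probe sets.

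**Figure D1:**
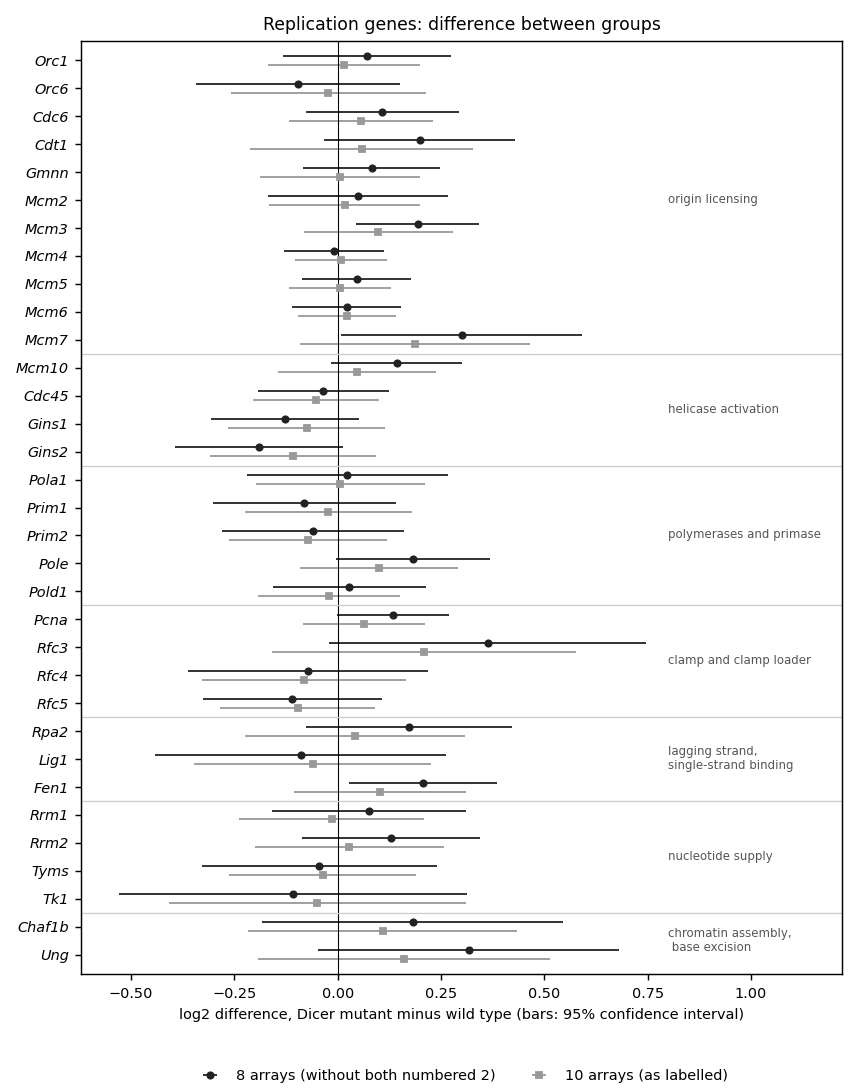
The log2 difference in signal, Dicer mutant minus wild type, is plotted for the 33 replication genes grouped by role, with circles for the 8 arrays without both numbered 2 and squares for the 10 arrays as labelled; bars are 95% confidence intervals. Nearly all intervals cross 0, those of Mcm3, Mcm7 and Fen1 lie just above 0 in the 8 arrays, and Rfc3 and Tk1 have the widest.

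Of the 11 genes of origin licensing, 9 lay above 0 in the 8 arrays and 2 had an unadjusted p under 0.05, Mcm3 and Mcm7, both subunits of the helicase ring. Mcm3 signals were 1504, 1306, 1585, 1464 and 1481 in Dicer mutant limb buds 1 to 5, against 1384, 1587, 1295, 1243 and 1356 in wild type limb buds 1 to 5. The arrays labelled mutant 2 and wild type 2 were the lowest mutant and the highest wild type array, and without them every mutant array lay above every wild type array. Over these 8 arrays Mcm3 averaged 1508 ± 53.4 in Dicer mutant and 1319.6 ± 63.1 in wild type limb buds (SD, n = 4 each), a log2 difference of 0.19 (SE 0.066) with a limma adjusted p of 0.235. The exact two-sided permutation p was 0.0286, the smallest that 4 against 4 arrays can give.

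Mcm7, another ring subunit and the host of the 3 microRNAs above, gave 5643, 4701, 5825, 4898 and 4756 in Dicer mutant limb buds 1 to 5, against 4945, 5625, 5057, 3938 and 3387 in wild type limb buds 1 to 5. Wild type 4 and 5 were the lowest of all arrays, while wild type 1 and 3 lay among the mutants, so the groups overlapped. Its log2 difference was 0.30 (SE 0.13, n = 4 each, limma adjusted p = 0.379) in the 8 arrays, 0.19 without wild type 5 and 0.19 in the 10 arrays. With the array number as a block in the 8 arrays, Mcm7 was called higher in mutants (limma adjusted p = 0.0318), the 1 gene of the 33 that the block called. The block called 1219 of all 22519 tested probe sets. The 4 probe sets of Mcm7 gave log2 differences between 0.29 and 0.35.

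The 4 other MCM ring subunits had log2 differences between -0.0086 and 0.049 in the 8 arrays. Mcm4 had the narrowest spread of the 33 genes, with signals of 2382 to 2536 in Dicer mutant and 2329 to 2546 in wild type limb buds and a difference of -0.0086. The differences of Mcm2, Mcm5 and Mcm6 were 0.049, 0.046 and 0.022, each smaller than its standard error of 0.10, 0.058 and 0.059.

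Among the factors that load the ring, Cdt1 had the largest log2 difference in the 8 arrays, 0.20 (SE 0.10, limma adjusted p = 0.491). Its signals in these arrays were 1297 to 1643 in Dicer mutant and 1074 to 1355 in wild type limb buds. Its inhibitor geminin (Gmnn) differed by 0.082 and the loading ATPase Cdc6 by 0.11 on the log2 scale, with limma adjusted p-values of 0.776 and 0.711. The origin recognition subunits Orc1 and Orc6 differed by 0.071 and -0.10. In the 8 arrays Orc1 signals were 238 to 282 in Dicer mutant and 218 to 264 in wild type limb buds. Those of Orc6 were 818 to 1017 in Dicer mutant and 874 to 1117 in wild type limb buds. For all of these the groups overlapped in the 8 arrays.

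Of the 4 genes of helicase activation 3 lay below 0 in the 8 arrays, with no unadjusted p under 0.05. Gins2, a subunit of the GINS complex, gave 659, 721, 636, 573 and 597 in Dicer mutant limb buds 1 to 5, against 729.8, 619, 773, 687 and 625 in wild type limb buds 1 to 5. In the 8 arrays each mutant array lay below the wild type array of its number, yet wild type 5 lay below 2 of the mutant arrays. The log2 difference was -0.19 (SE 0.090, n = 4 each, limma adjusted p = 0.440), and with array weights it was -0.30 and passed the threshold (limma adjusted p = 0.0272). The weights called 2612 of all 22519 tested probe sets. The partner of Gins2, Gins1, gave 827, 810.0, 789.9, 853 and 872 in mutant limb buds 1 to 5, against 957, 739, 931, 948 and 817 in wild type limb buds 1 to 5. Wild type 1, 3 and 4 were above every mutant array, and the array labelled wild type 2 was the lowest of the 10. The log2 difference of Gins1 was -0.13 (SE 0.080, n = 4 each, limma adjusted p = 0.614).

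Mcm10, which helps the loaded helicase to start, ran the other way. It gave 581, 446, 558, 543 and 559 in Dicer mutant limb buds 1 to 5, against 531, 565, 500.3, 518 and 481 in wild type limb buds 1 to 5. The array labelled mutant 2 was the lowest of all 10, and without both arrays numbered 2 the mutants all lay above the wild types. This gave a log2 difference of 0.14 (SE 0.070, n = 4 each, limma adjusted p = 0.456, exact two-sided permutation p = 0.0286). Cdc45, which joins GINS in the active helicase, differed by -0.035 on the log2 scale, with signals of 526 to 619 in Dicer mutant and 574 to 609 in wild type limb buds.

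Of the 5 polymerase and primase genes 3 lay above 0 in the 8 arrays. Pole, the catalytic subunit of the leading strand polymerase epsilon, gave 685, 588, 682, 662 and 608 in Dicer mutant limb buds 1 to 5, against 632, 688, 569, 594 and 532 in wild type limb buds 1 to 5. In the 8 arrays mutant 5 was the only mutant array below a wild type array, wild type 1. Pole had a log2 difference of 0.18 (SE 0.083, n = 4 each, limma adjusted p = 0.415, exact two-sided permutation p = 0.0571).

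Prim1, the catalytic subunit of primase, which lays down the RNA primers, gave 1262, 1410.3, 1175, 1485 and 1506 in Dicer mutant limb buds 1 to 5, against 1393, 1219, 1389, 1574 and 1361 in wild type limb buds 1 to 5. Mutant 4 and 5 were the highest mutant arrays and wild type 4 the highest of all, and the groups overlapped throughout. The log2 difference was -0.080 (SE 0.10, n = 4 each, limma adjusted p = 0.861). The primase large subunit Prim2 differed by -0.060, the polymerase alpha catalytic subunit Pola1 by 0.023 and the polymerase delta catalytic subunit Pold1 by 0.028 on the log2 scale, each within its standard error.

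The sliding clamp Pcna, which holds polymerases on DNA, gave 6713, 6108, 6963, 7367 and 7928 in Dicer mutant limb buds 1 to 5, against 6602, 7118, 6324, 7121 and 6320.0 in wild type limb buds 1 to 5. Mutant 4 and 5 were the highest of all arrays, and mutant 1 and 3 lay below wild type 4. Pcna had a log2 difference of 0.13 (SE 0.060, n = 4 each, limma adjusted p = 0.393) in the 8 arrays and 0.064 in the 10 arrays. With array weights in the 8 arrays it was 0.20 and was called (limma adjusted p = 0.0389). Those weights called 2612 of all 22519 tested probe sets.

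Rfc3, a subunit of the replication factor C complex that loads the clamp, had the largest difference of the 33 genes. Its signals were 949, 799.9, 985, 965 and 978 in Dicer mutant limb buds 1 to 5, against 891, 1059, 805, 894 and 504 in wild type limb buds 1 to 5. Wild type 5 lay far below all others and the array labelled wild type 2 was the highest, and the 8 arrays did not overlap between the groups. The log2 difference was 0.36 (SE 0.17, n = 4 each, limma adjusted p = 0.431, exact two-sided permutation p = 0.0286), and 0.17 without wild type 5. The other loader subunits among the 33 genes did not share this direction: Rfc4 differed by -0.072 and Rfc5 by -0.11 on the log2 scale, both within overlapping groups.

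On the lagging strand, Fen1, the nuclease that trims primer flaps, gave 1714, 1318, 1600.2, 1629 and 1828 in Dicer mutant limb buds 1 to 5, against 1543, 1634, 1379.6, 1594 and 1357 in wild type limb buds 1 to 5. Without both arrays numbered 2 the lowest mutant array, mutant 3, stood just above the highest wild type array, wild type 4. Fen1 averaged 1693 ± 102 in Dicer mutant and 1469 ± 118 in wild type limb buds over these 8 arrays (SD, n = 4 each), a log2 difference of 0.21 (SE 0.080, limma adjusted p = 0.305, exact two-sided permutation p = 0.0286). DNA ligase 1 (Lig1), which seals the trimmed fragments, differed by -0.090 and the single-strand binding subunit Rpa2 by 0.17 on the log2 scale. Their limma adjusted p-values were 0.917 and 0.625, and Rpa2 differed by 0.091 without wild type 5.

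Among the 4 genes of nucleotide supply, Rrm2, the small subunit of ribonucleotide reductase, gave 3322, 2781, 3408, 3775 and 4165 in Dicer mutant limb buds 1 to 5, against 3599, 3604, 3194, 3697 and 2929.7 in wild type limb buds 1 to 5. Mutant 5 was the highest array, that labelled mutant 2 the lowest, and the groups overlapped. The log2 difference was 0.13 (SE 0.10, n = 4 each, limma adjusted p = 0.700). The large subunit Rrm1 differed by 0.075 and thymidylate synthase (Tyms), with signals of 145 to 182 in Dicer mutant and 138 to 208 in wild type limb buds, by -0.045 on the log2 scale. Thymidine kinase 1 (Tk1) had signals of 639.7 to 916 in Dicer mutant and 517 to 945 in wild type limb buds, with wild type 5 the lowest of the 10. Its log2 difference was -0.11 (SE 0.19, limma adjusted p = 0.917), and -0.30 without wild type 5.

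Chaf1b, a subunit of the chromatin assembly factor that places histones on new DNA, gave 562, 528, 562, 467 and 486 in Dicer mutant limb buds 1 to 5, against 578, 600.3, 503, 450.3 and 330.0 in wild type limb buds 1 to 5. Wild type 5 was the lowest array by far, and wild type 1 and 2 were the highest. The log2 difference of 0.18 (SE 0.16, n = 4 each, limma adjusted p = 0.774) was 0.027 without wild type 5. Ung, the glycosylase that removes uracil from DNA, gave 585, 404, 579, 485 and 498 in mutant limb buds 1 to 5, against 522, 558, 492, 433 and 307 in wild type limb buds 1 to 5. Its log2 difference was 0.32 (SE 0.16, n = 4 each, limma adjusted p = 0.479) in the 8 arrays and 0.16 without wild type 5, which was again the lowest array.

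**Figure D2:**
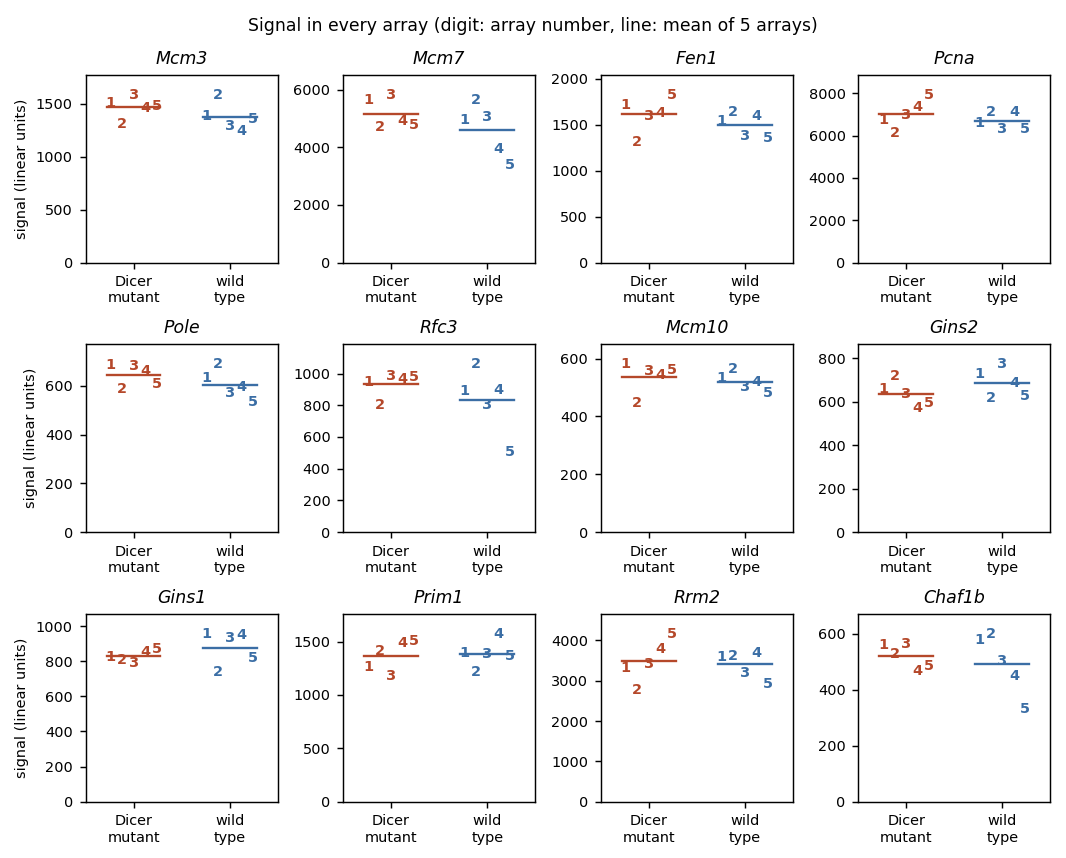
Linear signal of 12 replication genes in each array, with Dicer mutants on the left and wild types on the right; digits are array numbers and lines the means of 5 arrays. In Mcm3, Fen1, Rfc3 and Mcm10 the groups separate once both arrays numbered 2 are left out, and wild type 5 is low in Mcm7, Rfc3 and Chaf1b.

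The genes were also read over single arrays. The ratio of the highest to the lowest signal over all 10 arrays ran from 1.09 (Mcm4) to 2.10 (Rfc3) with a median of 1.34, and 26 of the 33 genes varied by less than 1.5-fold. This ratio was not taken over all tested probe sets. In the 10 arrays the median standard error of the log2 difference was 0.092 for the 33 genes and 0.096 for all tested probe sets. The median log2 deviation of the 33 genes from their own means was 0.016, -0.096, 0.034, 0.045 and 0.084 in mutant 1 to 5, and 0.038, 0.056, 0.017, 0.032 and -0.092 in wild type 1 to 5. The arrays labelled mutant 2 and wild type 5 were thus the 2 lowest. Over all tested probe sets the median deviation was -0.042 in the array labelled mutant 2, the lowest of the 10 arrays. In wild type 5 it was -0.0065. Wild type 5 was the lowest of all 10 arrays for 10 of the 33 genes, against 18.1% of all tested probe sets. Within the wild type group wild type 5 was the lowest or the highest array for 19 genes, against 55.5% of all tested probe sets. The 2 genes of chromatin assembly and base excision, Chaf1b and Ung, stood lowest in wild type 5, with a median deviation of -0.62. The 3 lagging strand genes and the 4 genes of nucleotide supply each had a median of -0.19 there.

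Arrays 4 and 5 were also set against arrays 1 to 3 within each group. In the mutants, arrays 4 and 5 both lay above arrays 1 to 3 for 11 genes (24.8% of all tested probe sets did so) and below them for 5 (23.8%). In the wild types, arrays 4 and 5 lay above arrays 1 to 3 for 1 gene (16.7%) and below them for 6 (23.9%). Tyms, Tk1 and Chaf1b were lower in arrays 4 and 5 in both groups. The median log2 difference of the 33 genes was 0.010 between the groups within numbers 1 and 3 and 0.088 within numbers 4 and 5, with 0 genes called by limma in either. No label says what the numbers mark.

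**Figure D3:**
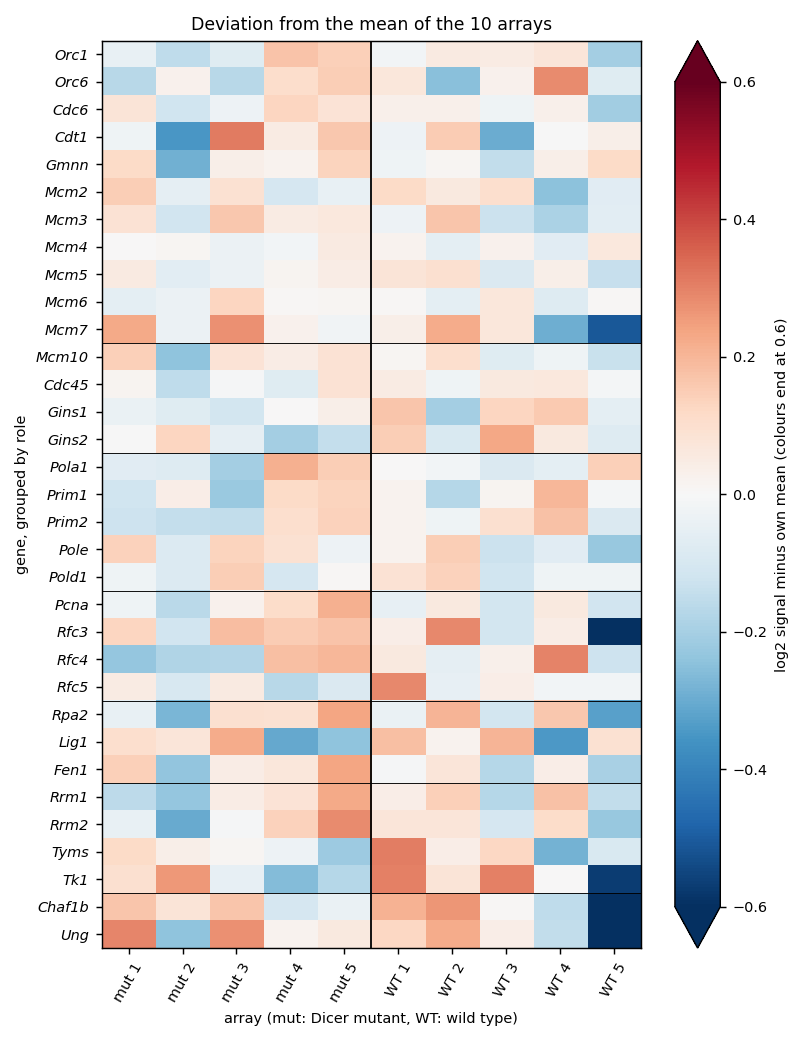
Each row is a replication gene and each column an array, Dicer mutants left of the line and wild types right; colours give the log2 signal minus the gene's own mean over the 10 arrays, ending at 0.6. Wild type 5 is the column with the deepest lows (Rfc3, Tk1, Chaf1b, Ung, Mcm7), and Mcm4 is the palest row.

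Neighbouring lists were compared as descriptions. Of 45 further replication genes 41 were tested, and in the 8 arrays 0 were called by limma, with a median log2 difference of 0.012. The smallest p-values belonged to Rfc2, another clamp loader subunit, at -0.25 ± 0.076 (SE, n = 4 each, limma adjusted p = 0.178), the histone chaperone Nasp at 0.13 ± 0.050 (0.304) and the checkpoint mediator Clspn at 0.18 ± 0.072 (0.334). Rfc2 averaged 987 ± 53.7 in Dicer mutant and 1171 ± 68.7 in wild type limb buds (SD, n = 4 each), with all mutant arrays below all wild type arrays, opposite in sign to Rfc3 of the same complex.

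Of 26 E2F and G1/S regulators, 23 lay above 0 in the 8 arrays with a median log2 difference of 0.11 (0.067 in the 10 arrays), and 1 was called. E2f5, an E2F family member that acts mainly as a repressor, averaged 1135 ± 75.1 in Dicer mutant and 852 ± 34.7 in wild type limb buds (SD, n = 4 each) and rose by 0.41 on the log2 scale (limma adjusted p = 0.0349). The call was lost in 6 of the 8 fits that left out 1 array, all but those without mutant 1 and without wild type 5, with adjusted p-values up to 0.119. Of 29 mitosis genes tested 2 were called, both higher in mutants and both parts of the central spindle. Kif23 averaged 1486 ± 67.1 in Dicer mutant and 1038 ± 59.9 in wild type limb buds (SD, n = 4 each), 0.52 ± 0.072 on the log2 scale (SE, limma adjusted p = 0.0113), and Prc1 averaged 1132 ± 70.5 in Dicer mutant and 867 ± 54.3 in wild type limb buds (SD, n = 4 each), 0.39 ± 0.080 (SE, limma adjusted p = 0.0498). Kif23 missed the threshold without mutant 4 and without mutant 5 (limma adjusted p up to 0.0518), and Prc1 in all fits without 1 array but that without wild type 5 (up to 0.134). With the array number as a block E2f5, Kif23 and Prc1 were called too, and another mitosis gene, the centromere histone Cenpa, was called lower in mutants (log2 difference -0.34, limma adjusted p = 0.0311, and 0.161 without the block). The median of the mitosis genes was 0.061 in the 8 arrays and -0.0093 in the 10, and in the 10 arrays limma called 0 genes of these 3 lists.

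**Figure D4:**
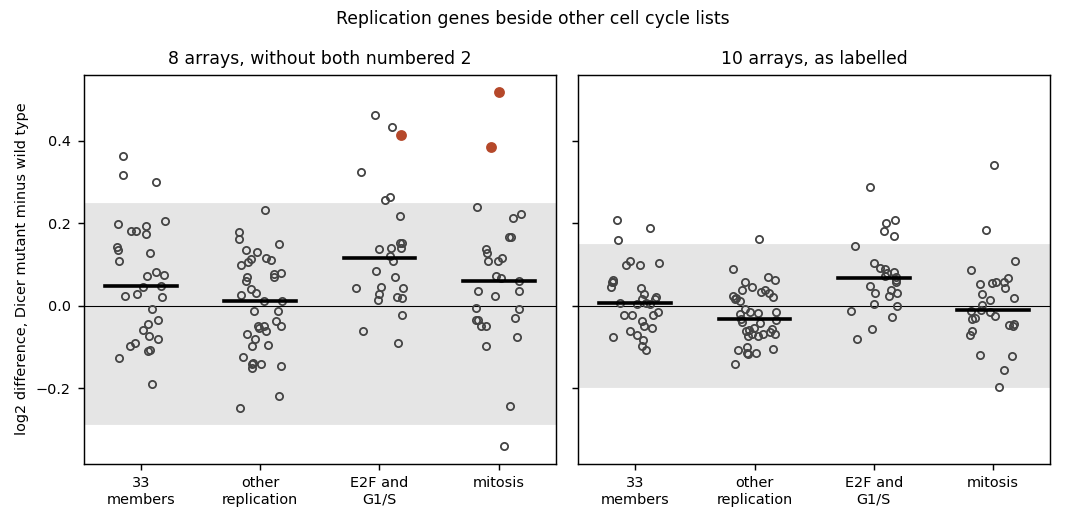
Each circle is a gene's log2 difference, Dicer mutant minus wild type, in the 8 arrays (left panel) and the 10 arrays (right panel); bars are list medians, filled circles are called by limma, and the grey band spans the central 90% of all tested probe sets. The 33 replication genes lie around 0 in both panels with none filled, while E2f5, Kif23 and Prc1 are filled in the 8 arrays.

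The reading of a gene also depended on its probe sets. Of the 71 probe sets of the 33 genes 58 were tested, and limma called 0 in either comparison. In 20 genes several were tested, and in 4 of these the signs of the log2 differences disagreed in the 8 arrays (6 in the 10 arrays). The 4 tested probe sets of Mcm3 gave differences between 0.15 and 0.19, both of Rfc3 gave 0.36, those of Fen1 0.21 and 0.24, and those of Gins2 -0.19 and -0.25. The probe sets used for Mcm2, Mcm3, Mcm5, Mcm7, Gins2, Pold1, Fen1 and Rrm2 are of the types ending in _s_at or _x_at. The maker marks these as matching several transcripts, so part of their signal may come from related sequences. Those used for Cdc6, Cdt1, Mcm10, Pole, Rfc3, Rpa2 and Ung end in _a_at. The alternative with probe sets not marked as shared set this type aside too, where a gene had another.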

How the data were processed

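Biotin-labelled cRNA was made from total limb bud RNA by an Affymetrix protocol and read on 1 array per sample, per the labels' protocols. The authors deposited linear intensity values for 45101 probe sets in 10 arrays, called signals here. The submitters' processing notes name GCOS 1.3. The sources used here do not give the probe summarization, the scaling target or detection calls. As deposited, the arrays shared a scale (2% trimmed means 276 to 289, a spread of 4.76%), so no normalization was added. Precision is limited by how many arrays there are.

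Signals under 1 were raised to 1 before taking log2. Without the 64 control probe sets, the 22519 with a mean log2 value at or above the median (a signal of at least 151) were fitted with limma 3.58.1 in R 4.3.3 (lmFit, eBayes with an intensity trend), and p-values were adjusted over all of them by Benjamini-Hochberg at 0.05. The 34945 probe sets with 1 gene symbol were named. Exact two-sided permutation tests used log2 signals. The fit was run on simulated data with added differences as a check of the code. Noise there was independent between arrays, so that run cannot check the fit for arrays that correlate.

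The genes, the lists, the comparison of 8 arrays and the naming rule were chosen with earlier results of these data known. Every array value is given for the 8 genes with the smallest p in the 8 arrays, the 3 with the smallest in the 10 arrays and the gene with the highest signal of each role, and for Dicer1. Ung was added after its values were seen. Of the other lists the called genes are named, or the 3 with the smallest p.

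Deviations of arrays with the same number from their group means correlated at 0.55, 0.55, 0.71 and 0.32 for numbers 1, 3, 4 and 5 in the 8 arrays, and at -0.18 for number 2 in the 10 arrays. The highest correlation with another number was 0.54, 0.54, 0.52 and 0.52 in the 8 arrays. The rule that every pair exceed 0.1 was met in the 8 arrays only. Yet no label calls the numbers pairs, and the arrays numbered 5 correlated less with each other than 1 did with another number. The fit without pairing was kept as the main one, with a replicate block as an alternative. Further alternatives changed the scaling (quantile normalization, or array medians set equal), added 16 or 64 to each signal, dropped the filter or moved it to the 70th percentile, and used array weights or no trend. The rest averaged each gene over its probe sets, or used probe sets not marked as shared, an exact permutation test, numbers 1 to 3 (or 1 and 3) and 4 and 5 apart, and leaving out each array.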

Additional observations from a re-analysis of the deposited data

Results flagged for a closer look

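In 4 of 66 tests of the highest and lowest array within a group of 5, a single array stood far from the others by Dixon's criterion. Chance gives such a result in about 1 in 20 groups. The loading ATPase Cdc6 had a signal of 673 in wild type 5, with the next lowest wild type array at 764. Mcm10 had 446 in the array labelled mutant 2, against 543 in the next lowest mutant array. Rfc3 had 799.9 in the array labelled mutant 2, with the next lowest mutant array at 949. The clamp loader subunit Rfc5 had 1047 in wild type 1, and the next highest wild type array had 879.5. The arrays concerned include that labelled mutant 2, whose Dicer1 signal goes against its label, and its part in these values was not tested.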

How the results depend on the processing

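In the 10 arrays 0 of the 33 genes were called under any of 24 alternative settings (lowest limma adjusted p 0.126). In the 8 arrays genes were called in 2 of 22 settings. Array weights called 2 genes, Pcna higher and Gins2 lower in mutants, among 2612 of 22519 tested probe sets, against 378 in the fit without weights. The replicate block, pairing arrays by number, called 1 gene, Mcm7 (limma adjusted p = 0.0318), among 1219 of 22519 tested probe sets. It changed no other call of the 33 genes, and of the other lists it added Cenpa, Tbx4, Tyrobp, Ctss and Krt14, and the cause of either change was not tested. The median log2 difference of the 33 genes was -0.035 with numbers 1 to 3 alone and 0.088 with numbers 4 and 5 alone in the 10 arrays, and 0.010 with numbers 1 and 3 alone and 0.088 with numbers 4 and 5 alone in the 8 arrays. Leaving out 1 array gave medians of -0.028 to 0.034 in the 10 arrays and 0.027 to 0.076 in the 8, with 0 genes called throughout. Over all settings 85 of 787 values of single genes in the 10 arrays and 38 of 721 in the 8 changed sign, and 8 and 18 genes never did. Calls over all probe sets in the 8 arrays fell to between 93 and 142 without 1 array, except 745 without wild type 5, and were 812 with numbers 1 and 3 alone. With numbers 4 and 5 alone, and by the exact permutation test, 0 were called. The smallest p of that exact test with 4 arrays a group is 0.0286. It passes the adjusted threshold only where most tested probe sets reach it. The distance of a signal from background is unknown, and 5 arrays a group, or 4, set the width of the intervals.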

Other observations

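Markers of the other cells a limb bud can hold were measured beside the replication genes in the 8 arrays. Of 9 cartilage markers tested limma called 1, Col11a1, a cartilage collagen, which averaged 494 ± 33.5 in Dicer mutant and 743 ± 92.9 in wild type limb buds (SD, n = 4 each) and fell by 0.58 on the log2 scale (limma adjusted p = 0.0314). The summed signal of all 16 cartilage markers was 5801 to 7832 in mutant and 6799 to 9011 in wild type limb buds. Of 4 nerve and Schwann cell markers tested 1 was called, the growth cone gene Gap43, with 195 ± 8.08 in Dicer mutant and 248 ± 16.5 in wild type limb buds (SD, n = 4 each), lower by a log2 difference of -0.34 (limma adjusted p = 0.0466). Both calls were lost in 7 of the 8 fits that left out 1 array, all but that without wild type 5, with adjusted p-values up to 0.105 for Col11a1 and 0.147 for Gap43. In these 8 arrays limma called 0 of 10 muscle, 6 red cell, 8 white blood cell, 9 endothelial and 11 surface ectoderm markers tested. Of the 8 white blood cell markers tested 6 lay above 0, with a median log2 difference of 0.16, and the summed signal of all 14 was 2789.5 to 3275 in Dicer mutant and 2564 to 2855 in wild type limb buds. Of these lists, 3 white blood cell markers (Ctss, Tyrobp and Cx3cr1, with log2 differences of 0.43, 0.49 and 0.19) and the surface ectoderm marker Krt14 (-0.45) had an unadjusted p under 0.05. With the array number as a block limma called Tyrobp and Ctss higher and Krt14 lower in mutants (adjusted p = 0.0164, 0.0197 and 0.0174, against 0.223, 0.0773 and 0.283 without the block). Col11a1 and Gap43 were called with the block too. In the 10 arrays 0 markers of any list were called, and no marker was at 0 in any array. Their part in the signals of the replication genes was not tested.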
